A study of Mus musculus with 36 samples.

Results

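Among microglia sorted as CD11c-negative, a small set of cells carried many Apoe transcripts: 152 of 1708 cells held a raw Apoe count of at least 10 and are called Apoe-high cells here. The study profiled single cells from brains of male mice aged 6 months. APP mice carried the APPswe/PSEN1dE9 transgenes (APP/PS1), in which a mutant human amyloid precursor protein and a mutant human presenilin lead to amyloid deposits, and WT mice were the controls. Cells from cortex and from hippocampus were gated as DAPI-negative, DRAQ5-positive, CD11b-high and CD45-intermediate, and then as CD11c-negative or CD11c-positive. Apoe-high cells came from 4 groups: 45 of 454 cells in APP cortex, 36 of 426 in APP hippocampus, 37 of 390 in WT cortex and 34 of 438 in WT hippocampus, with 4 animals per group. CD11c-positive cells were taken from APP mice, with 4 replicates in cortex and 3 in hippocampus, of which the ones named 1-2 and 2-3 may be pools of animals. Both the CD11b and the CD45 gate apply to every group, so cells outside them were not sampled. For 10 of the 23 CD11c-negative libraries the genotype in the tag is not the one in the title, and the titles were used. Set numbers in the titles are not shared between APP and WT samples of a region, so genotype and set cannot be told apart. Summed counts of the CD11c-negative cells ran from 1037425 to 4406184 per animal and region, from 1 or 2 libraries each.

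Apolipoprotein E, the product of Apoe (ENSMUSG00000002985, minus strand of chromosome 7, 19696109 to 19699188, GRCm38), carries cholesterol and other lipids between cells as lipoprotein particles. In the healthy brain astrocytes make most of it, and homeostatic microglia make little. Microglia near amyloid plaques switch on Apoe together with Itgax, which encodes CD11c, and with genes such as Cst7, Lpl and Clec7a, a state known as disease-associated microglia.

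Cells were chosen by their Apoe count, which is given here as a description. It ran from 10 to 774 per cell with a median of 47.5, which was a median level of 2013 CPM, the count scaled to a fixed total per cell. Counts under 20 were found in 28 cells, of 20 to 49 in 49, of 50 to 99 in 33, from 100 to under 200 in 28, from 200 to under 500 in 12 and of 500 or more in 2. Just inside the limit, 14 cells with 10 to 12 Apoe counts had a median of 610 CPM, and just outside it, 21 cells with 7 to 9 counts had a median of 465 CPM. The level of most Apoe-high cells lay below that of CD11c-positive cells, whose median was 4265 CPM: 29 of the 152 reached it, 18 from APP mice and 11 from WT mice. In the CD11c-positive gate 875 of 949 cells met the same limit of 10 counts. Apoe-high cells held 94.2% of all Apoe counts of the CD11c-negative cells and 13.7% of their counts of any gene.

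The remaining CD11c-negative cells divided into 1174 with an Apoe count of 0, called Apoe-0 cells and used for comparison, and 382 with 1 to 9 counts, of which 236 had a single count. These intermediate cells were spread unevenly. They made up 58.1% of cells in cortex of APP4, 53.2% in cortex of APP3, 47.8% in hippocampus of APP2, 42.1% in hippocampus of WT1 and 38.6% in hippocampus of APP4, and between 4.52% and 20.3% in the other 11 samples. Apoe-0 cells of those 5 samples are therefore a smaller part of their sample, 22 of 74 cells in cortex of APP4.

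Barcodes are reused between libraries: the 23 CD11c-negative libraries drew on 82 distinct barcodes, 81 of them in at least 2 libraries, so a barcode alone does not name a cell. The 152 Apoe-high cells used 67 barcodes, and 21 of these were Apoe-high in 1 library only. A pair of barcodes was Apoe-high in 6 libraries each, and they are shown because they recur most often among the members.
Barcode Apoe-high in hippocampus only: gaccgcaaca
Barcode Apoe-high in both regions: tgtcgttctg
The first was Apoe-high in hippocampal libraries of APP1, APP3, WT1, WT3 and WT4 with Apoe counts of 583, 16, 240, 12, 41 and 362, APP1 giving the 583 and the 16. The second was Apoe-high in cortex and hippocampus of APP1 and in hippocampus of APP2 and APP3, with counts between 16 and 90. None of the 630 pairs of libraries held identical values.

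By the markers of microglia, 138 of the 152 Apoe-high cells had a count for at least 3 of 6 genes (P2ry12, Tmem119, Csf1r, Cx3cr1, C1qa and Fcrls), against 1074 of 1174 Apoe-0 cells. The median was 5 of 6 markers in both. Most of the set thus held microglial transcripts, but this limit does not tell microglia from cells with transcripts of several types. It was met by 38 of 40 Apoe-high cells with markers of other cell types, described below, and by 100 of 112 others. The summed level of the 6 markers was lower in Apoe-high cells, in 8 of 8 animals. It ran from 4761 to 9529.7 CPM per animal (median 6506), against 9438 to 12962 CPM (median 10299) in Apoe-0 cells. Of the markers of other blood or border cells, 5 of 8 border macrophage, 4 of 6 monocyte, 3 of 7 dendritic cell and 3 of 4 lymphocyte genes of the files had a count in Apoe-high cells. The lymphocyte marker Ms4a1 and the oligodendrocyte marker Ermn were at 0. Of the border macrophage markers Ms4a7, Cbr2 and Clec10a were at 0, of the monocyte markers Vcan and S100a4, of the dendritic cell markers Flt3, Xcr1, Ccr7 and Clec9a, and both neutrophil genes of the files (S100a8 and Ngp). No Apoe-high cell carried at least 5 counts of 2 markers of monocytes, neutrophils or dendritic cells, and 0 of 152 cells allows a share of up to 1.97%, taken as 3 cells of the total.

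The share of Apoe-high cells did not differ between APP and WT mice by more than the spread between animals. In cortex their share of all kept cells was 10.6, 5.33, 15.2 and 12.2% in APP1 to APP4, against 7.10, 17.7, 6.25 and 9.21% in WT1 to WT4. The means were 10.8 ± 4.13% in APP and 10.1 ± 5.25% in WT mice (SD, n = 4 each), a difference of 0.751 percentage points (exact permutation test, 2-sided, p = 0.829). The highest share, in cortex of WT2, rested on 14 of 79 cells, with an exact binomial interval of 10 to 27.9%. In hippocampus the share was 9.86, 7.25, 10.3 and 2.86% in APP1 to APP4, against 8.97, 5.41, 6.25 and 10.7% in WT1 to WT4. Its means were 7.58 ± 3.43% in APP and 7.82 ± 2.43% in WT mice (SD, n = 4 each), a difference of -0.245 points (exact permutation test, 2-sided, p = 0.943). The smallest p of such a test is 0.0286. With the genotype taken from the tag instead of the title the difference was 4.77 points in cortex (exact permutation p = 0.143) and -4.89 points in hippocampus, where WT1 has libraries of both tags and was counted in each genotype, so no test is given. Hippocampus held 7.70 ± 2.75% and cortex 10.4 ± 4.39% (SD, n = 8 animals each), lower in hippocampus in 4 animals, higher in 3 and equal in 1 (difference -2.75 points, exact paired permutation test, 2-sided, p = 0.25). Without the cells that carried markers of other cell types, described next, the difference was 1.76 points (exact paired permutation p = 0.211).

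**Figure D1:**
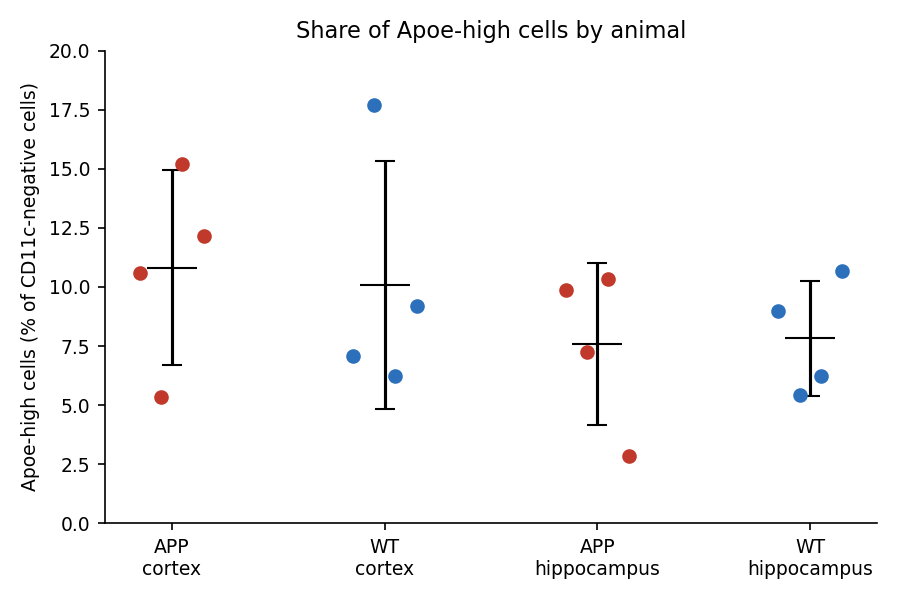
Share of Apoe-high cells among CD11c-negative cells (y axis, %) in each animal, by genotype and region. Points are animals, the horizontal line is the mean and the bar its SD (n = 4 per group); the APP and WT points overlap in both regions, with 17.7% in cortex of WT2 as the highest.

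Many cortical Apoe-high cells held transcripts of other brain cells. A cell was called a carrier where at least 2 genes of 1 marker list of another cell type had 5 counts or more each, with Clu and Siglech not counted. Carriers made up 40 of 152 Apoe-high cells (26.3%, exact binomial interval 19.5 to 34.1%), 48 of 1174 Apoe-0 cells (4.09%, interval 3.03 to 5.39%) and 10 of 152 Apoe-0 cells matched to the Apoe-high cells in depth within their library (6.58%). Of the 40, 35 held astrocyte, 29 neuron and 20 oligodendrocyte markers, and 17 held all of these at once. Such mixed cells also occurred in the CD11c-positive gate, in 171 of 875 cells with an Apoe count of at least 10 (19.5%). Intervals cover counting error only, and the match in depth fell short among the deepest cells, as described below.

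The regions differed: 39 of 82 Apoe-high cells of cortex were carriers, all with neural markers, against 37 of 585 Apoe-0 cells of cortex. In hippocampus 1 of 70 Apoe-high cells was a carrier, with border macrophage markers, against 11 of 589 Apoe-0 cells. The 0 of 70 hippocampal cells with neural markers allows a share of up to 4.29% by the same rule of 3 cells. The cortex of WT2 alone held 11 carriers among its 14 Apoe-high cells. Cortical and hippocampal libraries carry different set numbers in their titles, so region and set cannot be told apart. Cells below the carrier limit were not free of neural transcripts: summed astrocyte and neuron markers reached 1000 CPM in 17 of 43 other cortical and 11 of 69 other hippocampal Apoe-high cells, against 147 of 585 cortical and 71 of 589 hippocampal Apoe-0 cells.

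**Figure D2:**
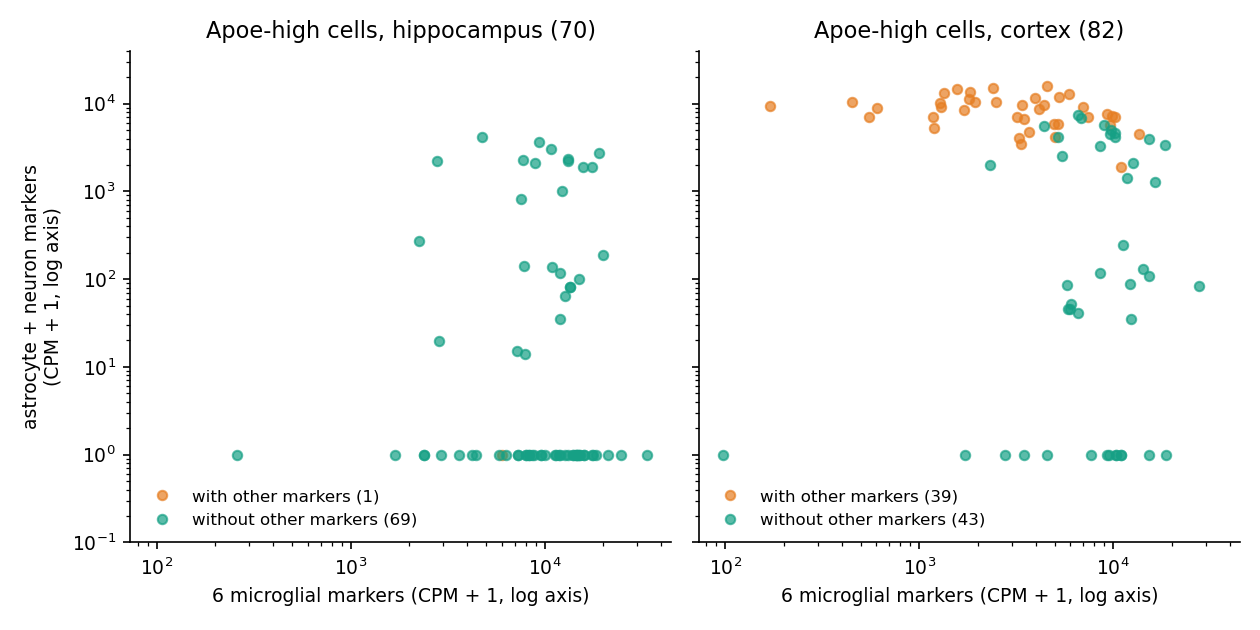
Summed CPM + 1 of the 6 microglial markers (x axis, log scale) and of the astrocyte and neuron markers (y axis, log scale, Clu left out) in each Apoe-high cell, hippocampus on the left (70 cells) and cortex on the right (82 cells). The 39 cortical carriers lie together at the top of the right panel with a median of 8603 CPM of neural markers, and 43 of 69 hippocampal cells without other markers lie at 0.

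Depth moved with the Apoe class. Apoe-high cells had a median of 28710.5 counts, 865 detected genes and 1.30% mitochondrial counts, against 18558 counts, 682.5 genes and 0.806% in Apoe-0 cells. Matched Apoe-0 cells had medians of 27357.5 counts, 768 genes and 0.856%. The match was incomplete among the deepest cells. The upper quartile was 42780.8 counts in Apoe-high and 38174.5 in matched cells, and the maximum 247915 and 106482. Carriers among the Apoe-high cells had a median of 46256 counts. Carriers among the Apoe-high cells had a median of 1580.5 genes and the other Apoe-high cells 776.5. Of the 44 Apoe-high cells with over 40000 counts 21 were carriers, and of the 89 with 10000 to 40000 counts 18 were.

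To compare the transcriptomes, counts were summed per animal over its Apoe-high cells and over its Apoe-0 cells, and edgeR's quasi-likelihood test compared the sums within animals, with Apoe left out. Levels per animal are CPM scaled by TMM factors, and each log2 difference is given ± its SE. Several astrocyte genes, and the neuronal genes Kif5a and Nefl, were higher in Apoe-high cells. Of 6154 genes 103 passed a Benjamini-Hochberg adjusted p of 0.05 (1.67%), 55 higher (0.894%) and 48 lower (0.78%), and 1183 had an unadjusted p under 0.05. With Apoe-0 cells matched in depth 66 of 3441 genes were higher (1.92%) and 29 lower, in all 2.76%, and 37 of the 55 higher and 15 of the 48 lower genes were called again. The other scaling of library sizes (RLE) gave 67 higher and 22 lower genes. It moved the median log2 difference of all genes, which was -0.95, to -0.73. No gene passed once the number of genes per cell was a covariate, and no gene was called higher once carriers were left out (0 higher and 266 lower, 5.75%). Of the 48 lower genes 41 were tested without carriers and 19 were called again. Leaving out 1 animal left between 5 and 135 genes, with 5 without APP4, 12 without WT2, 34 without WT4, 38 without WT3, 59 without APP3 and 67 without APP2.

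Slc1a2 (chromosome 2, 102658659 to 102790784) encodes the main glutamate transporter of astrocytes. It stood at 262, 379, 309 and 881 CPM in Apoe-high cells of APP1 to APP4 and 415, 1210, 262 and 270 CPM in those of WT1 to WT4, against 1.58, 26.1, 42.7 and 0 CPM in Apoe-0 cells of APP1 to APP4 and 3.94, 20.2, 11.1 and 21.8 CPM in those of WT1 to WT4. Every Apoe-high sum lay above every Apoe-0 sum, and the log2 fold change was 5.39 ± 0.84 (edgeR adjusted p = 0.00881, higher in 8 of 8 animals). In hippocampus alone the level was low in both classes, 6 counts in all Apoe-high cells (2.63 CPM) against 140 counts in all Apoe-0 cells (10.9 CPM). The transcript was present in 39 of 152 Apoe-high cells, 32 of them carriers, against 45 of 1174 Apoe-0 cells. The call was kept without each animal in turn (adjusted p 0.00893 to 0.0438) and against matched cells (8.47, adjusted p = 0.000521), but not in cells of 10000 to 40000 counts (3.11, adjusted p = 0.297). Without carriers Slc1a2 did not pass the filter on low counts.

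Kif5a (chromosome 10, 127225696 to 127263348), a kinesin heavy chain of neurons that moves cargo along axons, followed the same pattern. It stood at 80.7, 157, 343 and 618 CPM in Apoe-high cells of APP1 to APP4 and 83.5, 871, 307 and 278 CPM in those of WT1 to WT4. Apoe-0 cells had 0 to 1.16 CPM in 7 animals and 28.4 CPM in WT1, and the classes did not overlap (8.71 ± 1.17, edgeR adjusted p = 0.00385). Of 1879 Kif5a counts in Apoe-high cells all came from cortex, and 28 of the 29 cells with a count were carriers. The summed level was 61.4-fold higher than in Apoe-0 cells, which held 145 counts in all, 144 of them in cortex.

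Clu (chromosome 14, 65968483 to 65981547) encodes clusterin, which is apolipoprotein J, a lipid carrier made by astrocytes like apolipoprotein E. It stood between 39.6 and 319 CPM with a median of 166 CPM in Apoe-high sums, against 0 to 4.35 CPM in Apoe-0 sums (7.81 ± 1.37, edgeR adjusted p = 0.0109). Of 885 Clu counts in Apoe-high cells 884 lay in cortex, and 17 of the 19 cells with a count were carriers. Nefl (chromosome 14, 68083863 to 68089095), a neurofilament subunit of axons, had 50.5 to 263 CPM in Apoe-high sums and 0 in 7 of 8 Apoe-0 sums, with 614 counts against 14 (9.81 ± 1.59, edgeR adjusted p = 0.00939). Gap43, a growth cone protein of neurons, Kif5c, another neuronal kinesin, Nfib, a transcription factor of astrocytes and neurons, and Cpe, a peptide-processing enzyme of astrocytes and neurons, were also higher, by 8.92, 7.45, 7.25 and 4.58 on the log2 scale (edgeR adjusted p = 0.0153, 0.0377, 0.0109 and 0.012). The classes lay close for Gap43 in WT4 (28.7 against 22.8 CPM) and for Kif5c in APP1 (33 against 23.3 CPM). Summed levels were 70.1-fold higher for Gap43 and 20.3-fold higher for Kif5c. Of the fits that left out 1 animal, 6 of 8 lost the call of Kif5c and 2 of 7 that of Gap43. The calls of Nfib and of Cpe ended in 2 of 8 such fits, and those of Clu and of Nefl in 1 of 8.

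**Figure D3:**
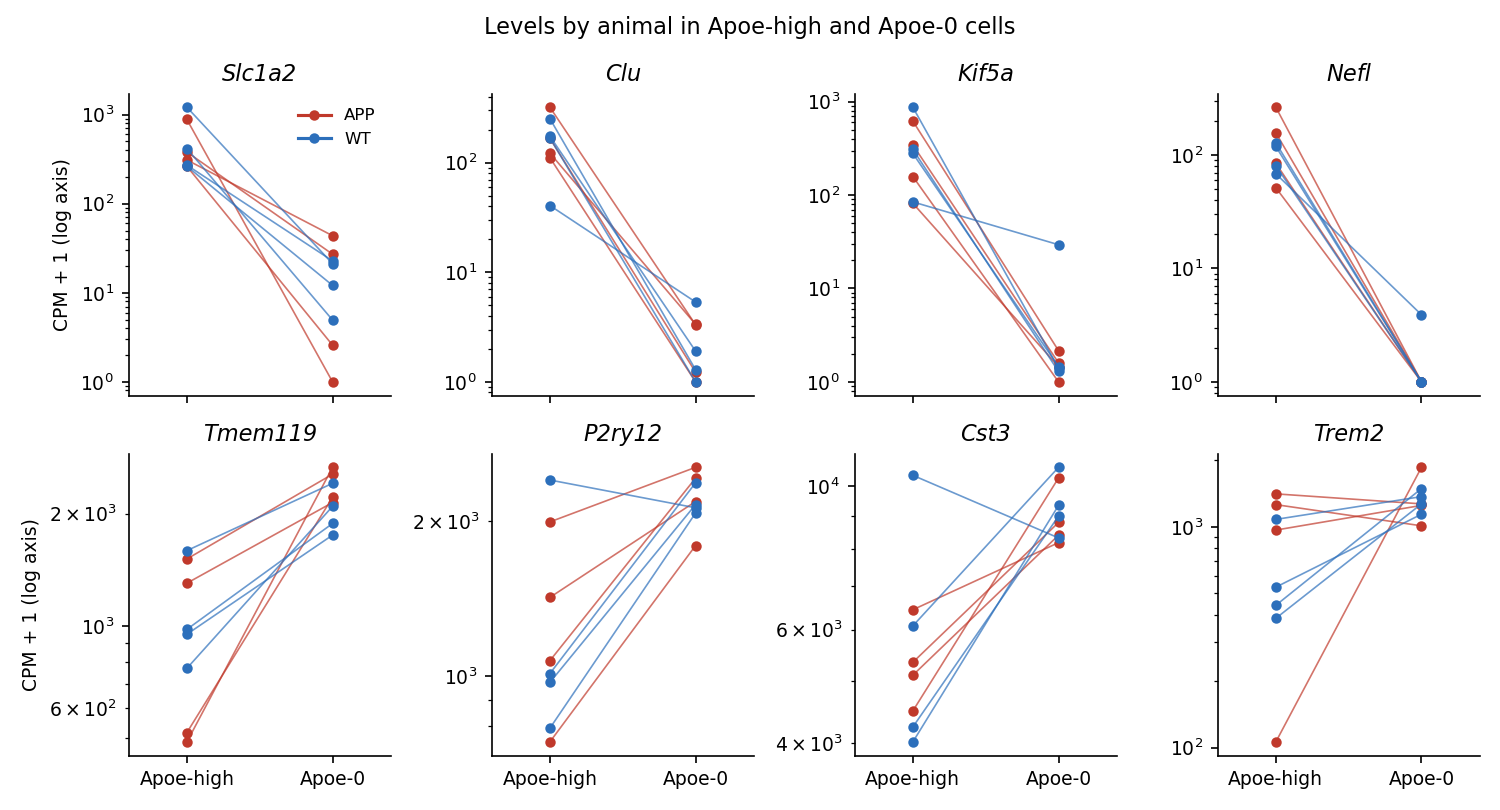
Level in CPM + 1 (y axis, log scale, a different range in each panel) of 8 genes in Apoe-high cells (left) and Apoe-0 cells (right). Each line joins the sums of 1 animal, red for APP and blue for WT (n = 8 animals); Slc1a2, Clu, Kif5a and Nefl lie higher in Apoe-high cells in every animal, Tmem119 lies lower in every animal, and the lines of P2ry12 and Cst3 run the other way in WT1.

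The summed marker lists of other cell types were compared per animal. Summed astrocyte markers ran from 894 to 5661 CPM per animal in Apoe-high cells and from 321 to 485 CPM in Apoe-0 cells, and neuron markers from 885 to 3467 CPM in Apoe-high cells and from 29.3 to 560 CPM in Apoe-0 cells, each higher in 8 of 8 animals. All 12 genes of both lists had a count in Apoe-high cells. Of 7 astrocyte genes tested 5 were higher and none lower, with a median log2 difference of 5.39 beside -0.95 over all genes, and of 6 neuron genes none passed, with a median of 5.06. Oligodendrocyte markers were higher in 7 of 8 animals with medians of 1128 CPM in Apoe-high and 930 CPM in Apoe-0 cells, and none of 5 genes tested passed. Precursors of oligodendrocytes reached 720 CPM in Apoe-high cells of 1 animal with a median of 111 CPM, against 7.93 CPM at most in Apoe-0 cells. Endothelial markers had medians of 504 and 398 CPM in Apoe-high and Apoe-0 cells. Border macrophage markers had medians of 54.9 and 73.0 CPM, monocyte markers 26.9 and 9.15 CPM, dendritic cell markers 468 and 821 CPM and lymphocyte markers 0.600 and 63.0 CPM in Apoe-high and Apoe-0 cells. Red blood cell markers were at 0 in most animals but reached 1873 CPM in Apoe-high cells of 1 animal. Their part in the differences was not tested.

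A few genes of homeostatic microglia, 4 of 23, passed as lower in Apoe-high cells, and none of the 23 passed without carriers. Their signs stayed mostly negative in that fit: 1 of 23 was positive, with a median of -0.48 beside -2.09 over all genes. Tmem119 (chromosome 5, 113793729 to 113800516), a membrane protein used to mark microglia, had 1300, 516, 1510 and 487 CPM in Apoe-high cells of APP1 to APP4 and 948, 977, 1590 and 768 CPM in those of WT1 to WT4. Apoe-0 cells had 2140, 2210, 2550 and 2660 CPM in APP1 to APP4 and 1750, 1880, 2410 and 2090 CPM in WT1 to WT4. The classes did not overlap, and Tmem119 fell by 1.23 ± 0.24 on the log2 scale (edgeR adjusted p = 0.0155, lower in 8 of 8 animals). The size is close to the median of all genes, -0.95. Against matched cells, where that median was 0.40, Tmem119 changed by -0.93 (edgeR adjusted p = 0.0395). Without carriers, where that median was -2.09, Tmem119 changed by -0.80 (edgeR adjusted p = 0.051). The call also ended without APP4 (adjusted p = 0.0535).

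P2ry12, the receptor that steers microglial processes toward ADP, changed by -0.88 ± 0.21 (edgeR adjusted p = 0.0398, lower in 7 of 8 animals). It lost the call against matched cells (-0.42, adjusted p = 0.546) and without carriers (-0.31, adjusted p = 0.386). Cst3 (chromosome 2, 148871722 to 148875692), the secreted protease inhibitor cystatin C, averaged 5756 CPM in Apoe-high and 9130 CPM in Apoe-0 sums (-0.73 ± 0.15, edgeR adjusted p = 0.0201, lower in 7 of 8 animals). It kept the call against matched cells (-0.68, adjusted p = 0.00393) but not without carriers (-0.24, adjusted p = 0.0889). C1qc, a chain of the complement starter C1q, changed by -0.81 ± 0.19 (edgeR adjusted p = 0.0379), and by -0.30 without carriers (adjusted p = 0.221). Of the 8 fits that left out 1 animal, 4 lost the call of Cst3, 6 that of P2ry12 and 5 that of C1qc. In all 4 of 23 homeostatic genes, 2 of 6 microglial markers and 1 of 8 complement genes were lower, with medians of -0.82, -0.84 and -0.81 beside -0.95 over all genes.

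The genes with the largest falls were little detected in the small Apoe-high sums. Igtp, an interferon-induced GTPase, was at 50.4 CPM in Apoe-high cells of APP1 and at 0 in the other 7 animals, against 13.1 to 190 CPM in Apoe-0 cells (-8.21 ± 1.91, edgeR adjusted p = 0.0379). Its summed level, 55 counts in Apoe-high and 1717 counts in Apoe-0 cells, was 6.59-fold lower, and the call was lost on leaving out any 1 of the 8 animals. Pvr, a nectin-like adhesion receptor, was 17.2-fold lower in summed level with 20 counts in Apoe-high and 1628 in Apoe-0 cells, and Srp68, a subunit of the signal recognition particle, changed by -7.19 ± 1.53 (edgeR adjusted p = 0.0251). Leaving out 1 animal ended the call of Pvr in 6 of 7 fits and that of Srp68 in 5 of 8.

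Over both regions no gene of the disease-associated lists passed against Apoe-0 cells. None of 6 tested genes of the core list and none of 22 of the broad list was called, with medians of -0.47 and -0.62. In cortex alone 3 of 20 tested genes of the broad list were lower, and 1 of 20 was lower over both regions against matched cells. Trem2, the lipid-sensing receptor of microglia, stood at 105 to 1410 CPM in Apoe-high sums and 1010 to 1860 CPM in Apoe-0 sums (-1.03 ± 0.39, edgeR adjusted p = 0.175). Among 14 tested genes that act with apolipoprotein E only Clu passed, upward. Apoc1, the neighbour of Apoe, had no count in any Apoe-high cell, and the lipid exporter Abcg1 was present in 147 of 152 Apoe-high and 1111 of 1174 Apoe-0 cells. Prnp, whose promoter is known to drive both transgenes of this strain, and App did not pass (3.24 ± 1.33 and 1.12 ± 0.80, edgeR adjusted p = 0.204 and 0.456), and 25 of the 32 Apoe-high cells with App and 22 of the 23 with Prnp were carriers. Of 21 mitochondrially encoded genes 5 were higher, beside 0.894% of all genes, with a median of 1.48 beside -0.95. Without carriers none of 17 passed, with a median of -0.09 beside -2.09. None passed among the tested genes of the lysosome (24), cholesterol synthesis (7), oxidative phosphorylation (22), cytosolic ribosomal protein (77), MHC class I (8) and class II (4), immediate early (7), cytokine (2) and interferon (2) lists.

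Within cortex the picture was sharper. Of 4159 genes 201 passed (4.83%), 74 higher (1.78%) and 127 lower (3.05%). Over all genes the median log2 difference was -0.83. Against matched cells 110 were higher and 37 lower, of which 54 and 36 were the same genes, and RLE scaling gave 91 higher and 58 lower. No gene passed without carriers, a fit that rested on 4 animals. All 6 microglial markers, 10 of 23 homeostatic genes, 3 of 8 complement genes and 3 of 20 broad disease-associated genes were lower, and 5 of 7 astrocyte, 1 of 6 neuron, 1 of 4 oligodendrocyte and 10 of 21 mitochondrially encoded genes were higher. P2ry12 fell by 1.32 ± 0.21 and Cst3 by 1.19 ± 0.13 on the log2 scale (edgeR adjusted p = 0.000444 and 6.68e-06, lower in 8 of 8 animals each). Abcg1, the exporter of cholesterol to lipoprotein particles, fell by 1.15 ± 0.14 (edgeR adjusted p = 2.95e-05), and Mylip, which sends lipoprotein receptors to degradation, fell by 1.91 ± 0.44 (edgeR adjusted p = 0.013).

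In hippocampus none of 3501 genes passed with 6 animals (561 at an unadjusted p under 0.05, 735 by DESeq2 and 56 by limma voom). Over all genes the median log2 difference was -1.88 there. Tmem119 had 692 to 2903 CPM in Apoe-high sums and 2076 to 2849 CPM in Apoe-0 sums (-0.82 ± 0.33, edgeR adjusted p = 0.219). Cst3 averaged 7975 CPM in Apoe-high and 9853 CPM in Apoe-0 sums there (-0.33 ± 0.12, edgeR adjusted p = 0.218). The interaction of class and region gave 4 of 3907 genes (0.102%), all with a difference that was less negative in hippocampus than in cortex. Over all genes the median interaction was -1.03. Actb (chromosome 5, 142903115 to 142906754), cytoplasmic actin, had 3335 to 8099 CPM in Apoe-high and 10149 to 16837 CPM in Apoe-0 sums of cortex, with no overlap. In hippocampus it had 4924 to 14593 CPM in Apoe-high and 9120 to 16141 CPM in Apoe-0 sums, which overlapped. Its log2 difference was -0.08 in hippocampus and -1.30 in cortex (interaction 1.21 ± 0.19, edgeR adjusted p = 0.000558). The tetraspanin Cd81, the retinal reductase Dhrs3 and the kinase Bmp2k had interactions of 1.14, 1.14 and 1.08 (edgeR adjusted p = 0.0159, 0.0227 and 0.0255), with -0.14, -0.19 and -0.17 in hippocampus and -1.28, -1.33 and -1.25 in cortex. No interaction passed without carriers, and 1 did against matched cells. The call of Actb was kept without each animal in turn. The number of genes was 1 without APP3, WT2, WT3 or WT4, 2 without APP1 or APP4, and 22 without APP2.

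The class difference was not found to depend on genotype. The interaction of class and genotype gave 0 of 6154 genes by edgeR (139 at an unadjusted p under 0.05, 66 by DESeq2 and 0 by limma voom). Among cortical Apoe-high cells alone, APP against WT gave 0 of 6896 genes (436 at an unadjusted p under 0.05, 40 by DESeq2 and 2 by limma voom). Few changes could be detected there: in simulated counts of 5743 genes a change of 4 on the log2 scale was recovered for 4 of 90 genes. Among hippocampal Apoe-high cells 2 of 6896 genes passed (0.029%), both higher in APP mice, with 3 animals per genotype and different sets for each genotype.

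Arhgap5, a GTPase-activating protein, had 1250, 1210 and 463 CPM in Apoe-high cells of APP1 to APP3, against 0, 4.81 and 0 CPM in those of WT1, WT3 and WT4 (9.31 ± 1.99, edgeR adjusted p = 0.0267). It was present in 7 of 14, 4 of 5 and 7 of 15 of these APP cells, but 1 cell of each animal held 73.7, 63.7 and 75.1% of its counts, and 1 count was found in all WT cells. In Apoe-0 cells of hippocampus it was present in 22.0 to 43.7% of cells of APP animals and 3.33 to 11.6% of WT animals. Its level there, without TMM scaling, overlapped between genotypes, 241 to 588 CPM in APP and 34.2 to 285 CPM in WT animals. Itm2c, a membrane protein of the BRI family, had 882, 644 and 1290 CPM in APP1 to APP3, against 7.01, 4.81 and 2.39 CPM in WT1, WT3 and WT4 (7.53 ± 1.70, edgeR adjusted p = 0.0409). It was present in 39.0 to 54.8% of hippocampal Apoe-0 cells of APP animals and 16.7 to 23.9% of those of WT animals. The levels of Itm2c in these cells overlapped too, 425 to 1037 CPM in APP and 281 to 554 CPM in WT animals. Hippocampal Apoe-high cells of APP4, 2 cells outside the fit, had no count of Arhgap5 or Itm2c. No gene passed in the fit without carriers, or without APP2, APP3 or WT4. Without APP1 these genes did not pass while 2 others were lower, 6 genes passed without WT1, and 1 passed without WT2 or WT3.

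Set beside the most alike cells, those of APP mice inside the CD11c gate with an Apoe count of at least 10, the Apoe-high cells outside it had lower levels of some disease-associated genes. In cortex 26 of 10425 genes passed, all lower (0.249%), and in hippocampus 23, all lower (0.221%). In hippocampus the gates carry different set numbers in their titles, so gate and set cannot be told apart. A block for the animal, which is shared by both gates in cortex, gave 102 genes there, 101 lower and 1 higher. RLE scaling gave 4 genes in cortex, 3 lower and 1 higher, and 15 in hippocampus, 14 lower and 1 higher. Without carriers 53 were lower (0.484%) and 1 higher (0.00913%) in cortex, in all 0.493%, from 2 CD11c-negative sums, and 19 were lower in hippocampus (0.174%). These were largely other genes in cortex: 8 of the 26 lower genes were called again there, and 14 of the 23 in hippocampus. The count in cortex was 10 without APP1, 61 without APP2, 4 without APP3 and 3 without APP4. In hippocampus it was 5 without APP1, 30 without APP2, 3 without APP3, 4 without APP4, and 9 without either CD11c-positive replicate 1-2 or 2-3. Of 17 core disease-associated genes 4 were lower in cortex and 7 in hippocampus, with medians of -4.33 and -9.40 beside -0.49 and -0.93 over all genes. Of 22 genes of the broad list 5 were lower in cortex and none in hippocampus, with medians of -1.90 and -1.21.

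Cst7 (chromosome 2, 150570415 to 150578944), a cystatin that acts on lysosomal cathepsins, had 0, 0, 0 and 17.9 CPM in CD11c-negative Apoe-high cells of cortex from APP1 to APP4, against 1170, 1270, 1210 and 1080 CPM in the CD11c-positive ones (-8.35 ± 1.10, edgeR adjusted p = 0.00259). In hippocampus it had no count in CD11c-negative Apoe-high cells of APP1 to APP3, against 1080, 1150 and 1030 CPM in the 3 CD11c-positive sums (edgeR adjusted p = 0.00151), at least 367-fold lower by 3 counts over the group. Per cell and over both genotypes, 9 of 152 Apoe-high cells had a Cst7 count, against 641 of 875 CD11c-positive cells with an Apoe count of at least 10. With every cell thinned to 5000 counts these were 1.33% and 59.2%, and 0.700% of Apoe-0 cells had one, so the share outside the gate is near that of cells without Apoe.

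Clec7a (chromosome 6, 129461591 to 129472779), the beta-glucan receptor dectin-1, was at 0 in all CD11c-negative Apoe-high sums of both regions, against 280, 355, 256 and 135 CPM in CD11c-positive cortex and 352, 391 and 304 CPM in CD11c-positive hippocampus. It was at least 111-fold lower in cortex and 120-fold lower in hippocampus (edgeR adjusted p = 0.00842 and 0.0168). Igf1 (chromosome 10, 87858265 to 87937042), the insulin-like growth factor, had 0, 0, 0 and 3.58 CPM in CD11c-negative against 354, 327, 221 and 390 CPM in CD11c-positive Apoe-high cells of cortex (-8.84 ± 1.43, edgeR adjusted p = 0.00842). In hippocampus it was at 0 in CD11c-negative and 348, 331 and 265 CPM in CD11c-positive sums, at least 111-fold lower (edgeR adjusted p = 0.0149). The hippocampal Clec7a call ended in 5 of 6 fits that left out 1 animal, as did those of Igf1 and Lpl. The cortical call of Clec7a ended in 2 of 6 such fits and that of Igf1 in 3 of 6. Of these 6, 2 left out a hippocampal replicate (1-2 or 2-3) and removed no sum of cortex.

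Chst2 (chromosome 9, 95399292 to 95406722), a sulfotransferase for carbohydrate chains, had no count in CD11c-negative Apoe-high cells of hippocampus, against 897, 1220 and 467 CPM in CD11c-positive ones, at least 314-fold lower (edgeR adjusted p = 3.84e-06). Gas7, a protein that binds actin, Ank, a transporter of pyrophosphate, and the chemokine Cxcl16 were also at 0 in the 3 CD11c-negative sums (edgeR adjusted p = 0.0137, 0.0137 and 0.0149), and each lost the call in 3 of 6 fits that left out 1 replicate. In cortex Gas2l3, Csf2ra, Gng12 and Hvcn1 were at 0 in all 4 CD11c-negative sums and at 115 CPM or more in each CD11c-positive sum (edgeR adjusted p = 0.0122, 0.00842, 0.0122 and 0.00842). Of the 6 fits that left out 1 replicate, 3 lost the call of Gng12 and 2 that of each of the others, though 2 of the 6 removed no sum of cortex. Csf2ra encodes a chain of the GM-CSF receptor and Hvcn1 a proton channel.

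Lpl (chromosome 8, 68880491 to 68907448), the lipase that frees fatty acids from lipoproteins, differed between the regions in its test. In hippocampus it had 1.93, 0 and 0 CPM in CD11c-negative and 908, 1250 and 678 CPM in CD11c-positive Apoe-high sums (-10.03 ± 1.96, edgeR adjusted p = 0.0204). In cortex it had 374, 0, 2.26 and 10.7 CPM in CD11c-negative and 631, 827, 831 and 602 CPM in CD11c-positive sums (-2.89 ± 1.13, edgeR adjusted p = 0.155, and -6.31 with adjusted p = 7.69e-07 with the block for the animal). Without APP1 it passed there too (-7.59, adjusted p = 0.0402). In APP1 cortex 3 of 16 cells held Lpl, 1 of them 71.6% of its 232 counts. Whether the regions differ in Lpl was not tested. Itgax itself (chromosome 7, 128129547 to 128150657), the gene behind the gate, had a count in 2 of 152 Apoe-high cells outside it and in 142 of 875 inside it. Both cells came from APP hippocampus, and 1 of them, from APP2, had 46 of the 47 counts.

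In cortex Tyrobp (chromosome 7, 30413760 to 30417585), the adaptor of Trem2, fell by 1.97 ± 0.32 on the log2 scale (edgeR adjusted p = 0.00842), and Ctsb (chromosome 14, 63122462 to 63145923), a lysosomal cathepsin, fell by 1.64 ± 0.29 (edgeR adjusted p = 0.0122). Ctsd, Ctsz, B2m, Gm2a, Ctss, C1qb and Cst3 were also lower there, by 0.97 to 1.95 on the log2 scale. Not all of these calls were kept without carriers. None of 12 MHC class I genes, a list with B2m, and none of 8 complement genes, a list with C1qb, passed in cortex then. Of the lysosome list, with Gm2a and Ctss, 1 of 25 was lower, and of the broad and homeostatic lists 4 of 22 and 1 of 23. Soat1, the enzyme that stores cholesterol as esters, fell by 3.74 ± 0.73 in hippocampus (edgeR adjusted p = 0.0204). Tmem119 did not pass in either region: 846, 102, 1310 and 426 CPM in CD11c-negative against 443, 486, 477 and 452 CPM in CD11c-positive sums of cortex, and 1730, 1260 and 1710 CPM in CD11c-negative against 615, 549 and 583 CPM in CD11c-positive sums of hippocampus (1.43 ± 0.61, edgeR adjusted p = 0.198), where the gates did not overlap. Astrocyte and neuron genes did not pass in either region. In cortex 10 of 11 and 12 of 12 were positive in sign, but in hippocampus 1 of 11 and 1 of 12, with medians of -4.28 and 0.

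**Figure D4:**
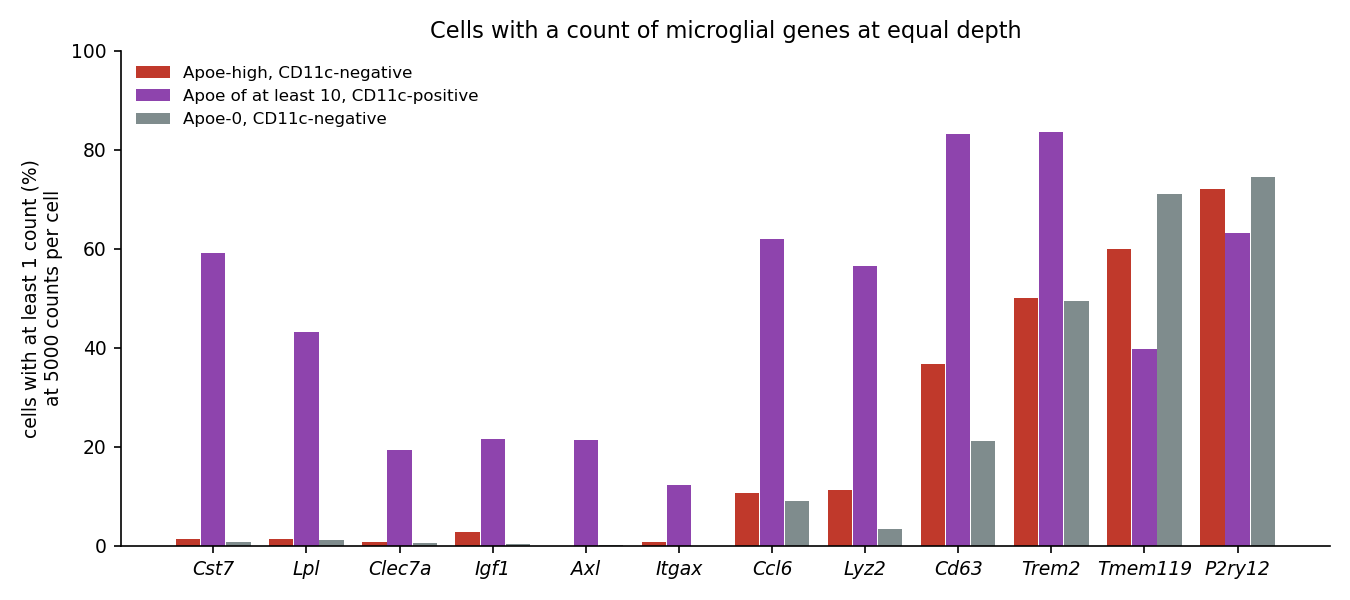
Share of cells (y axis, %) with at least 1 count of each gene after thinning every cell to 5000 counts, in CD11c-negative Apoe-high cells (150 of 152 deep enough), CD11c-positive cells with an Apoe count of at least 10, and CD11c-negative Apoe-0 cells. Cst7 is at 1.33, 59.2 and 0.700% and Trem2 at 50, 83.6 and 49.5%; cells are pooled over animals, with APP and WT together outside the gate and APP inside it, and no error is shown.

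Shares that stood between the gates were found for a few genes, described here with no test. At equal depth the lysosomal tetraspanin Cd63 had a count in 36.7% of CD11c-negative Apoe-high cells, 83.2% of CD11c-positive cells with an Apoe count of at least 10 and 21.1% of Apoe-0 cells. The lysozyme gene Lyz2 had one in 11.3, 56.5 and 3.41% of the same classes. The chemokine Ccl6 had one in 10.7, 61.9 and 9.10%, so that its share outside the gate was near that of Apoe-0 cells.

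Some Apoe-high cells carried transcripts of MHC class II, which presents antigen to T cells. Summed MHC class II genes reached 1000 CPM in 26 of 152 Apoe-high cells (17.1%), 327 of 875 CD11c-positive cells with an Apoe count of at least 10 (37.4%), 174 of 1174 Apoe-0 cells (14.8%) and 16 of 152 matched Apoe-0 cells (10.5%). Cd74, the invariant chain, had a count in 14 of 152 Apoe-high cells, 322 of 875 CD11c-positive cells with an Apoe count of at least 10 and 15 of 1174 Apoe-0 cells, and H2-Ab1 in 14, 221 and 23 cells. At equal depth these were 7.33, 24.4 and 0.875% for Cd74 and 8.67, 16.4 and 1.05% for H2-Ab1. Of the 14 Apoe-high cells with Cd74, 13 were no carriers, beside 112 of all 152 Apoe-high cells. The 14 include cells of hippocampus, where 0 of 70 Apoe-high cells had neural markers. Whether Cd74 and neural markers avoid each other was not tested. The cell with the highest raw Apoe count, 774 of its 109729 counts (7054 CPM), came from hippocampus of WT4. It also had the most MHC class II, 22136 CPM, and no marker of border macrophages. Its Apoe level was not the highest, which was 11647 CPM in a hippocampal cell of WT3. A cortical cell of APP4 had nearly as much MHC class II, 22036 CPM. A cortical cell of WT3 with 492 Apoe and 123 Cd74 counts had 3068 CPM of border macrophage markers and 1723 CPM of microglial markers. In sums per animal H2-Ab1 did not pass (5.70 ± 2.38, edgeR adjusted p = 0.212), and the 4 class II genes tested had a median of -1.26.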

How the data were processed

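Single cells sorted from mouse brain into 384-well plates were profiled with a protocol based on Smart-seq2, per the labels' protocols. The authors deposited raw counts per gene and barcode, and the submitters' processing notes name UMI-tools 0.5.3, HISAT2 2.1.0, featureCounts 1.6.0 and GRCm38 (mm10). Whether molecular identifiers were merged is not stated there. All 26348 gene identifiers matched GENCODE vM21. Barcodes with at least 200 detected genes were kept (2657 of 2660), with no doublet caller. Members and gene lists were chosen with earlier results of these data known. A member of the microglial lists is not reported here and was left out of them.

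Counts were summed per animal and class (at least 5 cells a sum, so hippocampus of APP4 and WT2 has no Apoe-high sum) and tested with edgeR 4.0.16 in R 4.3.3 (quasi-likelihood, filterByExpr, TMM, Benjamini-Hochberg threshold 0.05), with the animal as block between classes, since both classes come from the same animal. Comparisons of genotypes and gates shared 1 fit per kind over both regions. Shares were tested with exact permutation tests in scipy 1.17.1. Alternatives used DESeq2 1.42.0, limma 3.58.1, RLE scaling, other Apoe limits, depth windows, thinning to 5000 counts and left-out animals; matching of Apoe-0 cells by total count within a library was added after seeing the data. The tests were checked on simulated counts: of 5402 genes in the class comparison, 37 of 63 changes of 4 and 5 of 92 of 2 on the log2 scale were recovered.

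Named genes were the 12 higher and 8 lower with the largest change past the threshold, at 50 CPM or more, with 1 direction in every pair or no overlap; from each list the 4 most abundant and the 2 of smallest p; and Itgax, Cst7, Lpl, Apoc1, Tmem119, P2ry12, Trem2, App and Prnp. Examples of single cells, Arhgap5 counts per cell and gene shares per cell were chosen after their values were seen.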

Additional observations from a re-analysis of the deposited data

Results flagged for a closer look

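In 11 of 48 groups tested 1 animal stood apart from the rest of its group by Dixon's criterion. Chance alone meets it in about 1 in 20 groups only where values are normally distributed. Igtp and Pvr in Apoe-high sums and Nefl in Apoe-0 sums had a count in 1 animal only, where any count meets the criterion. The 11 of 48 groups therefore cannot be compared with that rate, and whether they exceed chance was not tested. The share of hippocampal cells with 1 to 9 Apoe counts was 42.1% in WT1, far above the other WT animals. Among Apoe-0 sums, Nefl stood apart in WT1 at 2.9 CPM, Kif5a in WT1 at 28.4 CPM, Gap43 in WT4 at 22.8 CPM, Cpe in WT4 at 80.1 CPM and Srp68 in WT2 at 196 CPM, each high. Among Apoe-high sums, Cpe stood apart in WT2 at 892 CPM, Cst3 in WT1 at 10400 CPM, Prnp in APP4 at 730 CPM, and Igtp and Pvr in APP1 at 50.4 and 18.3 CPM, each high.

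The difference between Apoe-high and Apoe-0 cells itself differed between hippocampus and cortex for 4 genes by edgeR's test of the interaction, with log2 values of 1.21 for Actb, 1.14 for Cd81, 1.14 for Dhrs3 and 1.08 for Bmp2k.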

How the results depend on the processing

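Of 252 alternatives to counts of genes and shares 135 kept the value, 103 moved it and 14 reversed it. A count of genes was kept if it stayed within 1.5 times. A difference in shares was kept if its sign stayed and its p stayed on the same side of the threshold, whatever its size. Of 1100 alternatives for named genes 814 kept the call and direction, 254 lost the call, 15 gained one and 17 reversed. The number of cells per sum (from 5) limits depth. The causes of these changes were not tested.

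Against Apoe-0 cells by animal 103 genes passed, with 328 without a gene filter, 1455 by DESeq2, 201 by limma voom, 50, 189 and 447 at Apoe limits of 5, 20 and 50, 197 in cells of 10000 to 40000 counts, 16 after thinning, 266 without carriers, 0 with genes per cell as covariate, and 5 to 135 leaving out an animal. In cortex 201 passed, with 937 by DESeq2, 328 by limma voom, 37 in the depth window, 45 after thinning, 0 without carriers, 0 with the covariate, and 138 to 226 leaving out an animal. In hippocampus 0 passed, with 1 by RLE, 735 by DESeq2, 56 by limma voom, 15 at a limit of 20, 1 at 50, 11 at 500 CPM, 138 with sums of 1 cell or more, and 0 leaving out an animal.

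The interaction with genotype gave 0 genes, 66 by DESeq2 and 0 leaving out an animal. The interaction with region gave 4, with 1 by RLE, without a filter, at limits of 20 and 50 and against matched cells, 510 by DESeq2, 29 by limma voom, 2 at 500 CPM and with sums of 1 cell, 0 at a limit of 5, in the depth window, after thinning, without carriers and with the covariate, and 1 to 22 leaving out an animal.

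APP against WT gave 0 genes in cortex, 40 by DESeq2, 2 by limma voom, 1 at a limit of 50 and 0 to 1 leaving out an animal. In hippocampus it gave 2, with 11 by RLE, 496 by DESeq2, 47 by limma voom, 1 at a limit of 5, 14 at 50, 10 at 500 CPM, 7 after thinning, 1 with the genotype tag, 0 without a filter, without carriers, with sums of 1 cell and with the covariate, and 0 to 6 leaving out an animal.

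Between the gates in cortex 26 passed, with 4 by RLE, 108 without a filter, 513 by DESeq2, 798 by limma voom, 9 at a limit of 5, 210 at 50, 92 after thinning, 54 without carriers, 7 with sums of 1 cell and 3 to 61 leaving out an animal. In hippocampus 23 passed, with 15 by RLE, 129 without a filter, 667 by DESeq2, 235 by limma voom, 57 at a limit of 50 and after thinning, 39 at 500 CPM, 90 in the depth window and 3 to 30 leaving out a replicate.

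The replicate block gave 102 genes between the gates in cortex, 6 for APP against WT in hippocampus and 0 in cortex. With sums per animal and region and the replicate block 257 genes passed against Apoe-0 cells. Without the replicate block 74 passed by animal, 200 in cortex and 43 for the interaction with region. Deviations of APP and WT sums with the same number correlated by -0.043 to 0.048, and those of the classes of 1 animal by -0.016 to 0.052. The labels do not link APP and WT animals by number.

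The share of Apoe-high cells, APP minus WT in cortex, was 0.751 points and reversed to -1.40 and -1.50 at limits of 20 and 50 and -0.451 in the depth window (-0.706 to 3.30 leaving out an animal). In hippocampus -0.245 reversed to 0.246 at 20, 0.143 at 500 CPM, 1.70 in the depth window and 0.0835 without carriers (-1.17 to 1.33). Hippocampus minus cortex, -2.75, reversed to 1.76 without carriers (-3.41 to -1.38). Against Apoe-0 cells Cst3 reversed to 0.029, C1qc to 0.034 and Prnp to -3.63 with the covariate, and App to -0.31 in the depth window and -3.82 without carriers. Between the gates P2ry12 in cortex, -0.02, reversed to 0.63 by RLE and DESeq2, 0.34 at a limit of 5, 0.24 at 500 CPM, 0.82 in the depth window, 0.52 after thinning, and to 0.06 and 0.069 in 2 of the fits that left out an animal (-0.36 to 0.069); Itgax in hippocampus, -0.15, reversed to 0.71 by RLE, 0.10 with the covariate, and to 0.48 and 0.46 in 2 of the fits that left out a replicate (-6.23 to 0.48).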
